A study of Homo sapiens with 9 samples.

Results

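The genes described are FOS, FOSB, FOSL1, FOSL2, JUN, JUNB, JUND, ATF3, MAFF and BATF3, subunits of the transcription factor AP-1 or close partners of it. They are 10 of the 26475 rows of the count table, picked by gene symbol, and each of the 10 passed the filter on low counts that left 14135 genes. They were picked with their levels in every group already known, so their levels and differences are given as a description, with no p-value. Counts of them past the threshold used for all genes were largely fixed by that choice and show nothing further. The cells are MDA-MB-231, a line grown from a human breast adenocarcinoma that lacks the hormone receptors. Knockdown cells stably carried pLKO.1-shACSL4, a lentiviral vector for a short hairpin RNA against ACSL4. PRGL493 cells carried the empty pLKO.1 vector and were treated with PRGL493, an inhibitor of ACSL4. Control cells carried the empty vector and received no treatment according to their label. All 3 groups therefore share the vector backbone, and each has 3 libraries described as batches of cells. The labels name 1 hairpin plasmid, and give no dose, time or vehicle for the inhibitor. Loss of ACSL4 therefore cannot be told apart from other effects of that hairpin, nor the inhibitor from any vehicle. ACSL4 joins arachidonic acid and related polyunsaturated fatty acids to coenzyme A, which lets them enter membrane phospholipids. The comparisons ask what loss of the enzyme's RNA and exposure to its inhibitor each do to the transcriptome.

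AP-1 is a pair of basic leucine zipper (bZIP) proteins that binds DNA as a dimer. JUN proteins pair with one another or with FOS proteins, while FOS proteins need a JUN partner to bind. FOS, FOSB, JUN, JUNB and ATF3 are immediate early or stress-induced genes whose RNA appears within minutes of growth factor, MAP kinase or stress signalling and decays quickly. In breast cancer lines of the mesenchymal, hormone receptor negative kind, FOSL1 (FRA-1) is known as the main FOS protein and as a driver of invasion.

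Levels are TMM-scaled CPM (estimated read counts scaled to a common library total), and log2 fold changes come with the standard error (SE) of a model fitted across all genes. Library totals ran from 28673938 to 43027190 counts. ACSL4 averaged 27.0 ± 2.95 CPM in knockdown cells, 348 ± 13.7 CPM in PRGL493 cells and 349 ± 14.8 CPM in control cells (SD, n = 3 each). It fell in the knockdown (log2 fold change -3.69, SE 0.07, edgeR adjusted p = 6.0e-16), and its log2 fold change in PRGL493 cells was -0.01 (SE 0.06, edgeR adjusted p = 0.95). Markers of the line, VIM, CD44, EGFR, CAV1, AXL and ZEB1, summed to 5359 to 5523 CPM in knockdown, 5423 to 5492 CPM in PRGL493 and 5423 to 5557 CPM in control libraries. Within these sums CD44 rose (log2 fold change 0.21, edgeR adjusted p = 0.0011) and AXL fell (-0.24, edgeR adjusted p = 3.8e-04) in PRGL493 cells. EGFR fell in the knockdown (-0.45, edgeR adjusted p = 0.0097), while VIM, CAV1 and ZEB1 were not called against control in either treatment. Of 6 genes listed as low in the line, the hormone receptor genes ESR1 and PGR reached at most 0.0306 and 0.155 CPM in any library. The 6 summed to 472 to 543, 462 to 475 and 473 to 502 CPM in knockdown, PRGL493 and control libraries, mostly through KRT18 (359 to 441 CPM) and ERBB2 (68.1 to 104 CPM). EPCAM, an epithelial marker among them singled out after its values were seen, rose to 30.4 ± 0.101 CPM in knockdown cells (log2 fold change 0.74, edgeR adjusted p = 1.1e-06) and fell to 9.94 ± 1.07 CPM in PRGL493 cells (-0.86, edgeR adjusted p = 3.3e-07), against 18.1 ± 0.448 CPM in control cells. CDH1, another epithelial marker on that list, averaged 1.60 ± 0.363 CPM in knockdown, 0.659 ± 0.229 CPM in PRGL493 and 2.02 ± 0.030 CPM in control cells. It was not called in the knockdown (-0.33, edgeR adjusted p = 0.29) and fell in PRGL493 cells (-1.57, edgeR adjusted p = 1.3e-04). KRT18 was called in neither (0.05 and -0.11), so the rise of EPCAM in the knockdown was not shared by them. The part of these genes in the results was not tested. Markers of blood, endothelial, liver, fibroblast and basal cells summed to 1.44 to 1.98, 2.41 to 3.64 and 2.40 to 2.66 CPM in knockdown, PRGL493 and control libraries, with 1 of 8 at 0 throughout; whether they bear on the results was not tested. Knockdown replicate 2 stood apart from the other libraries. Its genes with transcripts of up to 2034 bases deviated from the mean of all 9 libraries by a median log2 value of 0.17 and those over 4832 bases by -0.17. In the other libraries these medians lay between -0.07 and 0.06. Where leaving it out ends a call of a member or moves a list's count by over 1.5 times, the value is given beside the result.

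The start regions of these genes carry short motifs that bZIP dimers are known to bind. Promoter windows (GRCh38.p14, RefSeq) were matched for 8 of the 10 genes, with 10 windows in all since ATF3 and MAFF have a pair each; FOSL1 and BATF3 had no entry. The 250 bases before the RefSeq start are shown for 5 of them, each sequence ending at the base next to that start. The RefSeq starts differ from those of the GENCODE gene coordinates given below. By the GENCODE coordinates the whole JUN sequence lies inside the gene, as do the ends of the FOS, FOSB and ATF3 sequences. The windows of FOSL2 and MAFF and the other ATF3 window, not shown, also lie inside their genes. FOS, FOSB and ATF3 are shown because their RNA was furthest below control in the knockdown, and JUN and JUND because they were below control in the knockdown and above it in PRGL493 cells. Capitals mark TGACNTCA, an 8-base element of the CRE type bound by JUN-ATF dimers, or TGACG, the 5-base core of such an element, on either strand (CGTCA where reversed). FOS lies at chr14:75278578-75278827 (+ strand), FOSB at chr19:45467746-45467995 (+), ATF3 at chr1:212565157-212565406 (+), JUN at chr1:58784048-58784297 (- strand) and JUND at chr19:18281623-18281872 (-).
FOS: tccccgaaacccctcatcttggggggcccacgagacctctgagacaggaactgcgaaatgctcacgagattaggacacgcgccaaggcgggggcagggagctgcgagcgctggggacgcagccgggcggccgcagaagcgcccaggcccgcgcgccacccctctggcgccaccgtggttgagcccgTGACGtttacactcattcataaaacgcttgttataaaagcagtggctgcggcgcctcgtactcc
FOSB: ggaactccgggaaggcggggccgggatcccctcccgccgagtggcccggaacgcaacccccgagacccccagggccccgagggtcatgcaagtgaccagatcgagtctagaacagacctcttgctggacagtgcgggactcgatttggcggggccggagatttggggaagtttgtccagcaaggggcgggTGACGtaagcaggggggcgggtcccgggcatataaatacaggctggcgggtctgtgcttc
ATF3: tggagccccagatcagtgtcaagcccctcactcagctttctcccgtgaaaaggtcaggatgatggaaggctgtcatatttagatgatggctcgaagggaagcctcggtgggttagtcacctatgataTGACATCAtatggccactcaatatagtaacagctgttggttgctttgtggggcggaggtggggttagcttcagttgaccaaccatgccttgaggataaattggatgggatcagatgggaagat
JUN: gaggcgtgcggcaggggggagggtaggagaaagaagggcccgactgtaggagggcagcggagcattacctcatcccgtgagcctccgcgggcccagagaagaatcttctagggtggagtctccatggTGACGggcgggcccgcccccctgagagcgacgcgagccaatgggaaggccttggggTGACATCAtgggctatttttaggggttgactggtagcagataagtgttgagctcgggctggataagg
JUND: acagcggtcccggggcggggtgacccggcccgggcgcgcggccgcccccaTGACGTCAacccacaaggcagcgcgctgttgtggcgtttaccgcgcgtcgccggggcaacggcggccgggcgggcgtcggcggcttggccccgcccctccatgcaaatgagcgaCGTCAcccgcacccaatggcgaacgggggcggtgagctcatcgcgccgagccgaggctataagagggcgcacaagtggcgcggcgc

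Positions are counted from the RefSeq start, with -1 the last base before it. By the GENCODE coordinates the matches in JUN, FOSL2 and MAFF lie inside the gene, and those in the other genes lie before it. JUN carried TGACATCA at -67 to -60 and TGACG at -123 to -119, and the ATF3 window shown carried TGACATCA at -123 to -116. The other ATF3 window and the other MAFF window held none of the motifs searched. JUND carried the full palindrome TGACGTCA at -200 to -193 and TGACG reversed at -86 to -82, while one MAFF window carried the palindrome at -54 to -47. FOS carried TGACG at -64 to -60, FOSB at -60 to -56 and JUNB at -137 to -133. FOSL2 carried TGACG on the forward strand at -66 to -62, TGACG reversed at -201 to -197, and TGACTCA, the 7-base AP-1 element, at 4 to 10 after the start. Searched on both strands over the whole windows of 300 bases, TGACNTCA was found in 7.72% of 35116 promoters, TGACGTCA (a case of TGACNTCA that holds TGACG on both strands) in 1.85%, TGANTCA in 7.71% and TGACG in 24.6%. The CArG box, the motif of serum response factor, was found in 1.29% of all promoters and in none of the members' windows. Only exact matches were sought, from 250 bases before the start to 50 after it. Boxes further upstream could not be found, so these windows cannot show that a gene lacks one. These matches describe letters only and were not tested as sites.

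In knockdown cells 9 of the 10 AP-1 genes were called lower than in control and BATF3 was not called, where 30.1% of all tested genes were called and 15.3% called lower (adjusted p below 0.05). In PRGL493 cells all 10 were called, 8 lower and 2 higher, where 41.8% of all tested genes were called, 20.4% lower and 21.4% higher. The knockdown libraries did not overlap the control libraries for any of the 10 genes, 1 above and 9 below, against 42% of all tested genes (20.8% above and 21.2% below). The PRGL493 libraries did not overlap the control libraries for any of the 10 either, 2 above and 8 below, against 57.2% of all tested genes (30.1% above and 27.2% below). Both comparisons use the same 3 control libraries. The 7 genes FOS, FOSB, FOSL1, FOSL2, JUNB, ATF3 and MAFF, were below control in every library of both treatments. JUN and JUND were below control in the knockdown and above it in PRGL493 cells, and BATF3 was above control in the knockdown and below it in PRGL493 cells. The median log2 fold change of the 10 genes was -0.59 in the knockdown and -0.58 in PRGL493 cells, where that of all tested genes was 0.001 and 0.009. Nothing is read from these counts and medians, since the genes were chosen with their values known.

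**Figure D1:**
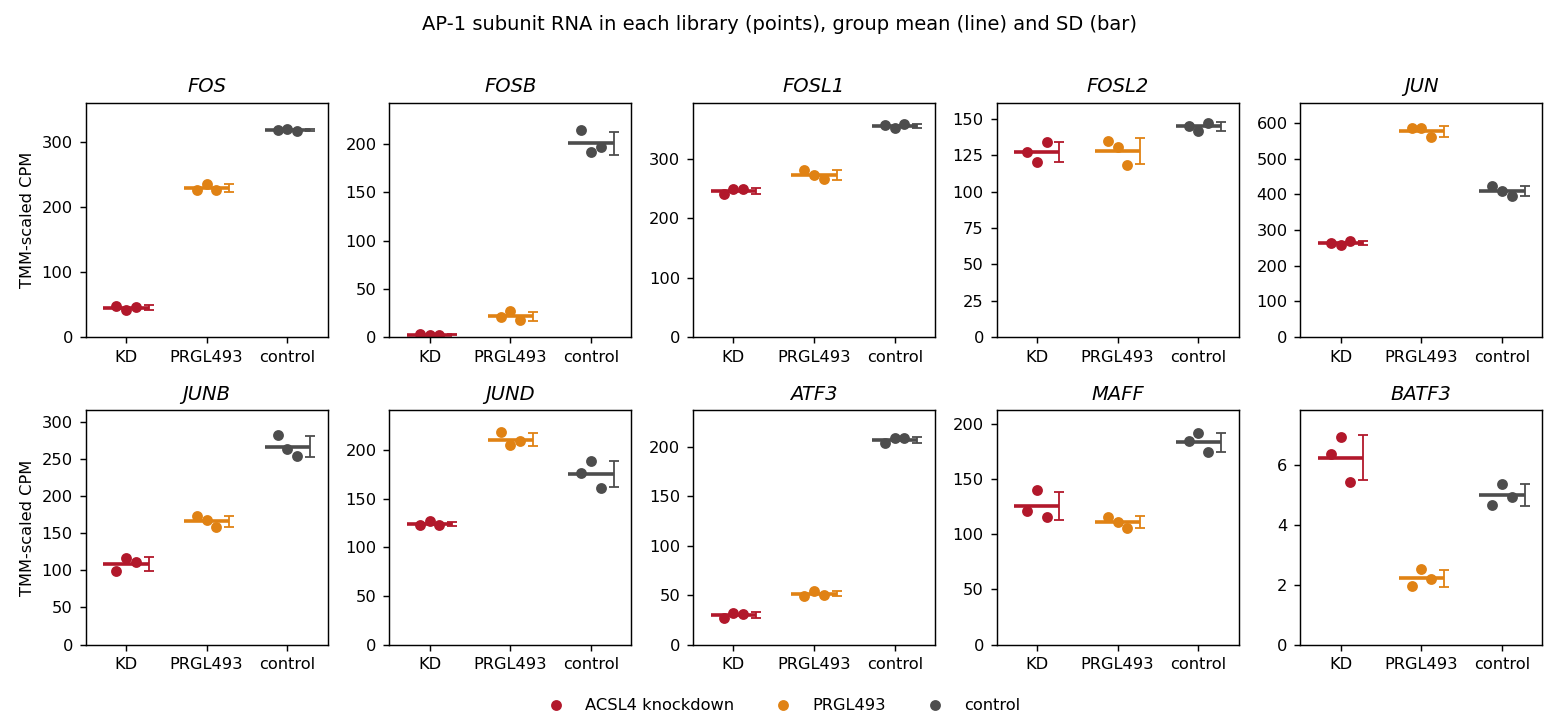
Level of each AP-1 gene in TMM-scaled CPM (vertical axes, from 0, scaled per gene) in 3 knockdown (KD), 3 PRGL493 and 3 control libraries; points are libraries, lines are means and bars are SD. FOSB averaged 2.38, 21.4 and 201 CPM in these groups, and JUN, at 264, 577 and 410 CPM, was highest in PRGL493 cells.

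FOS, the founding member of its family (chr14:75278774-75282230, + strand), was much lower in the knockdown than under the inhibitor. It had 47.7, 41.3 and 46.4 CPM in the knockdown libraries, 225, 236 and 226 CPM in the PRGL493 libraries and 318, 319 and 317 CPM in the control libraries. The 3 groups stood clear of one another, with knockdown at 14.2% and PRGL493 at 72.0% of the control mean. The log2 fold change against control was -2.82 (SE 0.06) in the knockdown and -0.47 (SE 0.05) in PRGL493 cells, and that of knockdown against PRGL493 was -2.34 (SE 0.06). From the lowest value, FOS ranked 22 of 14135 tested genes in the knockdown and 1677 in PRGL493 cells. In RNA of whole cultures, fewer cells expressing a gene and less RNA in each cell cannot be told apart.

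FOSB, the FOS relative whose full-length form activates transcription as FOS does (chr19:45467995-45475179, + strand), was nearly absent from knockdown cells. It had 3.15, 1.82 and 2.18 CPM in the knockdown libraries, from 138, 69 and 85 reads, 20.5, 26.5 and 17.2 CPM in the PRGL493 libraries, and 214, 191 and 197 CPM in the control libraries. The groups did not overlap, and both treatments were far below control, the knockdown at 1.19% and PRGL493 at 10.7% of the control mean. The log2 fold change was -6.38 (SE 0.21) in the knockdown and -3.24 (SE 0.17) in PRGL493 cells. Those values ranked 2 and 15 from the lowest among all tested genes. FOSB lies within the span of ERCC1, a DNA repair gene on the other strand, with 0 exon bases in common. ERCC1 averaged 53.5 CPM in knockdown, 49.0 CPM in PRGL493 and 66.6 CPM in control libraries. Whether the counting used strand is not stated, so reads of a gene and its antisense partner cannot be told apart where they overlap.

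FOSL1 (FRA-1), which lacks the activation domain of FOS (chr11:65892049-65900573, - strand), differed less between groups. It had 240, 250 and 249 CPM in knockdown, 282, 273 and 266 CPM in PRGL493, and 357, 352 and 358 CPM in control libraries. The groups did not overlap, with log2 fold changes of -0.53 (SE 0.05) in the knockdown and -0.38 (SE 0.05) in PRGL493 cells. FOSL2 (FRA-2), its nearest relative (chr2:28392448-28417312, + strand), had 127, 121 and 134 CPM in knockdown, 135, 131 and 118 CPM in PRGL493, and 145, 142 and 147 CPM in control libraries. Both treatments lay just below control and overlapped each other. Its log2 fold change was -0.19 (SE 0.06) in the knockdown and -0.18 (SE 0.06) in PRGL493 cells. The FOSL2 call was lost in both comparisons without control replicate 1 (log2 fold change -0.19 in the knockdown and -0.18 in PRGL493 cells) and without control replicate 3 (-0.18 in the knockdown and -0.17 in PRGL493 cells). It was also lost in PRGL493 cells without PRGL493 replicate 3 (-0.13), and in the knockdown when only library totals were used for scaling (-0.15).

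JUN, the core DNA-binding partner of the FOS proteins (chr1:58780788-58784327, - strand), went opposite ways in the treatments. It had 263, 259 and 270 CPM in knockdown libraries, 585, 586 and 560 CPM in PRGL493 libraries, and 424, 410 and 396 CPM in control libraries. Every knockdown library was below and every PRGL493 library above every control library. The log2 fold change was -0.64 (SE 0.05) in the knockdown and 0.49 (SE 0.05) in PRGL493 cells, a difference of -1.13 (SE 0.05) between the treatments. JUND, the JUN relative that is made steadily rather than as an early response (chr19:18279760-18281622, - strand), had the same order. Its levels were 123, 127 and 123 CPM in knockdown, 218, 205 and 210 CPM in PRGL493, and 176, 189 and 161 CPM in control libraries. Its log2 fold changes were -0.50 (SE 0.06) in the knockdown and 0.27 (SE 0.06) in PRGL493 cells, with no overlap between groups.

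JUNB, an early-response JUN protein that activates AP-1 sites more weakly than JUN (chr19:12791496-12793315, + strand), was below control in both treatments. It had 98.5, 117 and 112 CPM in knockdown, 173, 168 and 158 CPM in PRGL493, and 283, 263 and 255 CPM in control libraries. Knockdown libraries were lowest and control libraries highest, with no overlap. The log2 fold change was -1.29 (SE 0.06) in the knockdown and -0.68 (SE 0.06) in PRGL493 cells. JUNB shares 259 exon bases with HOOK2 on the other strand, which averaged 15.4, 18.1 and 18.1 CPM in knockdown, PRGL493 and control cells.

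ATF3, a stress-induced bZIP protein that pairs with JUN proteins and represses as a homodimer (chr1:212565334-212620777, + strand), was far below control in both treatments. It had 27.0, 31.8 and 30.9 CPM in knockdown, 49.5, 54.1 and 50.3 CPM in PRGL493, and 204, 209 and 209 CPM in control libraries. The groups did not overlap, and the knockdown reached 14.4% and PRGL493 24.7% of the control mean. Its log2 fold change was -2.80 (SE 0.07) in the knockdown and -2.02 (SE 0.06) in PRGL493 cells, ranked 23 and 68 from the lowest among all tested genes. Against control, FOS by comparison was at -2.82 in the knockdown and -0.47 in PRGL493 cells.

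MAFF, a small MAF protein without an activation domain that is also an early-response gene (chr22:38200767-38216511, + strand), was the 1 AP-1 gene whose mean was lower in PRGL493 than in knockdown cells while both lay below control. It had 122, 140 and 116 CPM in knockdown, 116, 112 and 105 CPM in PRGL493, and 185, 192 and 175 CPM in control libraries. The lowest knockdown library, 116.2 CPM, only just exceeded the highest PRGL493 library, 116.1 CPM. Log2 fold changes were -0.55 (SE 0.07) in the knockdown and -0.73 (SE 0.07) in PRGL493 cells. MAFF overlaps the span of PLA2G6, on the other strand, over 4924 bases with 0 exon bases in common, and PLA2G6 averaged 2.75, 2.87 and 2.36 CPM in knockdown, PRGL493 and control cells.

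BATF3, a partner of JUN proteins known from dendritic cell development (chr1:212686418-212699985, - strand), was the scarcest of the 10 in PRGL493 and control cells. In knockdown cells FOSB was scarcer, at a mean of 2.38 CPM. BATF3 had 6.36, 6.93 and 5.44 CPM in knockdown, 1.95, 2.52 and 2.20 CPM in PRGL493, and 4.68, 5.39 and 4.92 CPM in control libraries, from 71 to 279 reads a library. PRGL493 libraries were clearly lowest, while the lowest knockdown library was barely above the highest control library. The log2 fold change was -1.18 (SE 0.14) in PRGL493 cells. In the knockdown it was 0.32 (SE 0.13) and missed the threshold, which it passed without knockdown replicate 3 (0.41) and with library totals (0.36) or upper-quartile factors (0.35).

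**Figure D2:**
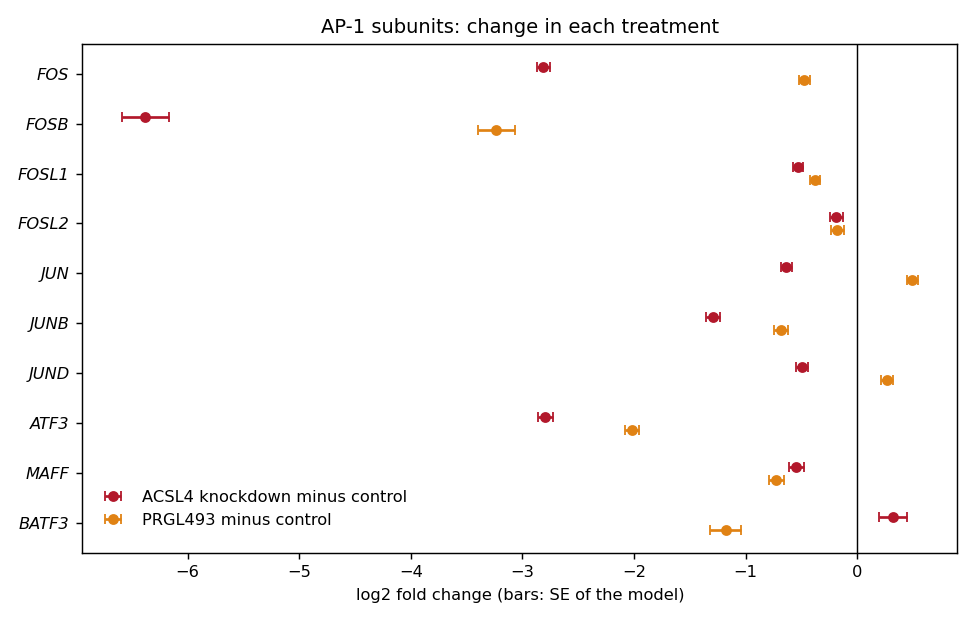
Log2 fold change of each AP-1 gene against control (horizontal axis) in knockdown and in PRGL493 cells; points are model estimates from 3 libraries a group and bars are SE. JUN and JUND lie at -0.64 and -0.50 in the knockdown and at 0.49 and 0.27 in PRGL493 cells, and FOSB is furthest from 0 in both.

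Set directly against PRGL493 cells, knockdown cells had lower levels of 7 AP-1 genes and higher levels of 2 by call, where 50.4% of all tested genes were called, 26% lower and 24.4% higher. The libraries of the 2 groups did not overlap for 9 of the 10, 7 below and 2 above, against 56% of all tested genes (28.8% below and 27.3% above). The largest differences on the log2 scale, knockdown minus PRGL493, were -3.14 (SE 0.22) for FOSB, -2.34 for FOS, 1.50 (SE 0.14) for BATF3 and -1.13 for JUN. ATF3 (-0.78), JUND (-0.76) and JUNB (-0.61) followed, each with an SE of 0.06. FOSL1 differed by -0.15 (SE 0.05) and lost its call without PRGL493 replicate 1 (-0.12), without PRGL493 replicate 2 (-0.14) and with upper-quartile factors (-0.09). MAFF differed by 0.18 (SE 0.07) and lost its call without knockdown replicate 2 (0.10), PRGL493 replicate 2 (0.19) or PRGL493 replicate 3 (0.15), and in a fit of the 2 groups alone (0.18). FOSL2 differed by -0.01 (SE 0.06), with overlapping libraries, and was not called.

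Levels were compared between genes as CPM per kilobase of the principal transcript (GENCODE 29, GRCh38). In knockdown cells FOSL1 was highest at 148 ± 3.14 CPM per kb, followed by JUN at 74.6 ± 1.63, JUND at 66.8 ± 1.11, JUNB at 59.9 ± 5.20 and MAFF at 50.6 ± 5.02 (SD, n = 3). FOS at 20.9 ± 1.59, FOSL2 at 19.0 ± 1.0, ATF3 at 14.7 ± 1.26, BATF3 at 6.37 ± 0.769 and FOSB at 0.631 ± 0.182 CPM per kb came after them. JUNB and MAFF overlapped between libraries, as did FOS and FOSL2. In PRGL493 cells FOSL1 (164 ± 4.87) and JUN (163 ± 4.15) overlapped at the top, above JUND (113 ± 3.6), FOS (106 ± 2.68), JUNB (91.3 ± 4.20) and MAFF (44.6 ± 2.15). ATF3 (25.2 ± 1.21), FOSL2 (19.1 ± 1.30), FOSB (5.66 ± 1.25) and BATF3 (2.27 ± 0.292 CPM per kb) were lowest there. In control cells FOSL1 led at 213 ± 2.11 CPM per kb, then FOS at 147 ± 0.565 and JUNB at 147 ± 8.0, which overlapped, and JUN at 116 ± 4.0. ATF3 at 102 ± 1.47 overlapped JUND at 94.3 ± 7.42, and MAFF (73.8 ± 3.46), FOSB (53.2 ± 3.16), FOSL2 (21.6 ± 0.418) and BATF3 (5.10 ± 0.365 CPM per kb) followed. Where all annotated exons of a gene were taken as its length, JUN at 163 CPM per kb stood above FOSL1 at 145 in PRGL493 cells. In PRGL493 cells FOS (70.7) then also stood below JUNB (91.3), and ATF3 (12.7) below FOSL2 (17.9). In knockdown cells FOS (13.9) then stood below FOSL2 (17.8). In control cells FOS, at 98.2 CPM per kb, then stood below JUNB at 147 and JUN at 116, ATF3 at 51.3 below JUND at 94.3, and MAFF at 32.7 below FOSB at 36.2. The values of FOS, ATF3, MAFF and BATF3 moved most, by over 1.5 times, while those of JUN, JUNB and JUND did not move.

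Summed over its 4 genes, FOS family RNA was 188 ± 2.95 CPM per kb in knockdown, 295 ± 7.51 in PRGL493 and 435 ± 4.86 in control cells (SD, n = 3 each). The 3 groups did not overlap. Summed JUN family RNA was 195 to 205 CPM per kb in knockdown, 358 to 378 in PRGL493 and 338 to 370 in control libraries, so that PRGL493 and control overlapped. The makeup of the FOS family differed with its total. FOSL1 made up 78.5% ± 1.28 of it in knockdown, 55.6% ± 0.942 in PRGL493 and 49.0% ± 0.307 in control cells. FOS made up 11.1% ± 0.844, 36.0% ± 0.925 and 33.9% ± 0.437 in the same order, and FOSB 0.336% ± 0.10, 1.92% ± 0.388 and 12.2% ± 0.595. Within the JUN family, JUN made up 37.1% ± 1.34 in knockdown, 44.3% ± 0.598 in PRGL493 and 32.5% ± 0.543 in control cells. JUNB made up 29.7% ± 1.75, 24.8% ± 0.497 and 41.1% ± 1.04 of it in these groups. The FOS family sum over the JUN family sum was 0.935 ± 0.0228 in knockdown, 0.801 ± 0.0109 in PRGL493 and 1.22 ± 0.0560 in control cells. With all annotated exons as the length, an alternative chosen after seeing the data, that ratio was 0.809 ± 0.0180 in knockdown, 0.645 ± 0.00710 in PRGL493 and 0.963 ± 0.0451 in control cells, so the order of the 2 families in control cells depends on the length used. FOSL1 then made up 80.2%, 61.0% and 54.9% of the FOS family in these groups. These sums follow from the members' own levels and carry no test.

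**Figure D3:**
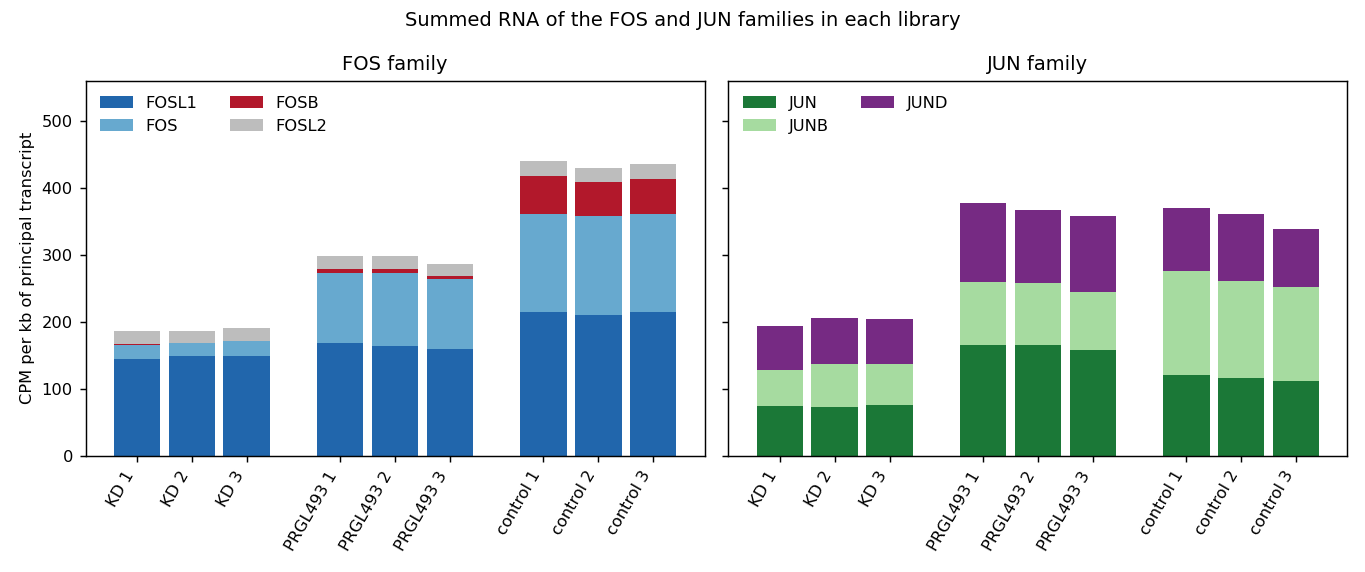
Stacked levels of the FOS family (left) and JUN family (right) genes in each library, in CPM per kb of principal transcript, for knockdown (KD), PRGL493 and control replicates 1 to 3. The FOS family sum was 186 to 192 in knockdown, 286 to 299 in PRGL493 and 430 to 440 in control libraries, and most of the RNA left in knockdown libraries was FOSL1.

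The 10 genes also differed in how closely they tracked one another over the 9 libraries. The measure was the root mean square difference of log2 CPM after each gene was centred on its own mean, where a small value means a like pattern. FOSL1 and FOSL2 were closest at 0.15, then JUN and JUND at 0.16 and FOSL1 and MAFF at 0.18. FOS was closest to ATF3 among them, at 0.74, and FOSB was 1.52 from ATF3, its nearest member. Over all other genes whose log2 CPM averaged 2 or more, the nearest to FOS were EGR1 (0.24), CPVL (0.31), DUSP1 (0.40), IER2 (0.44) and BTG2 (0.46), where FOS itself varied by 1.23. EGR1 averaged 206 ± 40.2, 966 ± 45.7 and 1898 ± 34.1 CPM in knockdown, PRGL493 and control cells, and DUSP1 averaged 48.2 ± 4.41, 174 ± 6.89 and 467 ± 35.0 CPM. CPVL averaged 2.17 ± 0.205 CPM in knockdown cells, 8.93 ± 0.372 CPM in PRGL493 cells and 9.55 ± 0.491 CPM in control cells. The nearest to JUN were DPP3 and HMGCS1 (0.07 each), DENND2C (0.09), TRIM62 (0.10) and C1S (0.11), where JUN itself varied by 0.46. HMGCS1 averaged 43.4 ± 2.18, 92.2 ± 2.17 and 64.1 ± 2.12 CPM in the 3 groups in that order. The nearest to ATF3 were NFKBIZ (0.15), SGK1 (0.18), CTGF (0.19), CSRNP1 (0.24) and ZFP36 (0.35), where ATF3 itself varied by 1.18. CTGF averaged 211 ± 13.8, 426 ± 3.01 and 1895 ± 84.7 CPM. These genes were chosen for their likeness, so their levels carry no test.

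Genes that act before and after AP-1 were read from 7 lists of 118 genes in all, with DDIT3 and ATF4 each on a pair of lists, which were tested with edgeR's quasi-likelihood test. Over all tested genes 14.7% rose and 15.3% fell in the knockdown, 21.4% rose and 20.4% fell in PRGL493 cells, and 24.4% were higher and 26% lower in knockdown than in PRGL493 cells. Of 22 tested genes described as AP-1 targets, 2 rose and 13 fell in the knockdown, with a median log2 fold change of -0.25 (0.001 over all genes). In PRGL493 cells 6 rose and 14 fell, with a median of -0.44 (0.009 over all genes). Those with the smallest adjusted p that fell in both were secreted signals. IL6, an inflammatory cytokine, averaged 96.0 ± 3.17 CPM in knockdown, 105 ± 4.23 CPM in PRGL493 and 255 ± 3.69 CPM in control cells. It fell in the knockdown (log2 fold change -1.41, SE 0.05, edgeR adjusted p = 1.3e-12) and in PRGL493 cells (-1.28, SE 0.05, edgeR adjusted p = 6.0e-12). HBEGF, a ligand of the EGF receptor, averaged 140 ± 3.64, 138 ± 4.12 and 327 ± 4.65 CPM in knockdown, PRGL493 and control cells. Its log2 fold changes were -1.22 (edgeR adjusted p = 3.8e-12) in the knockdown and -1.24 (edgeR adjusted p = 3.9e-12) in PRGL493 cells. IL1B, another inflammatory cytokine, fell by 1.16 on the log2 scale in the knockdown (edgeR adjusted p = 1.4e-10) and by 1.12 in PRGL493 cells (edgeR adjusted p = 1.6e-10).

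Some other AP-1 targets differed between the treatments. IL11, a cytokine of the IL6 family, fell in PRGL493 cells to 8.39 ± 0.697 CPM, against 29.4 ± 1.89 CPM in control cells (-1.81, SE 0.09, edgeR adjusted p = 1.4e-10). Knockdown cells had 24.5 ± 2.38 CPM of IL11, a smaller fall against control (-0.27, SE 0.08, edgeR adjusted p = 0.021). That was 1.54 above PRGL493 on the log2 scale (SE 0.09, edgeR adjusted p = 9.2e-10). LOX, a collagen cross-linking enzyme, averaged 234 ± 7.38 CPM in knockdown, 131 ± 7.66 CPM in PRGL493 and 180 ± 3.47 CPM in control cells. It rose in the knockdown (0.38, SE 0.05, edgeR adjusted p = 4.4e-05), where the other to rise was CLU (0.16, edgeR adjusted p = 0.047), a call lost when any 1 library but knockdown replicate 1 was left out. LOX was 0.83 higher there than in PRGL493 cells (SE 0.05, edgeR adjusted p = 2.1e-09). CCND1, the G1 cyclin D1, averaged 573 ± 14.8, 786 ± 20.6 and 697 ± 16.1 CPM in knockdown, PRGL493 and control cells. Its difference between knockdown and PRGL493 was -0.46 (SE 0.05, edgeR adjusted p = 6.2e-07). CCND1 fell in the knockdown (-0.28, SE 0.05, edgeR adjusted p = 2.4e-04). It rose in PRGL493 cells (0.17, SE 0.05, edgeR adjusted p = 0.0064), a call lost without PRGL493 replicate 2 (edgeR adjusted p = 0.055). DNMT1, CD44 and EZR also rose in PRGL493 cells, by 0.37, 0.21 and 0.23 on the log2 scale (edgeR adjusted p of 5.4e-05, 0.0011 and 0.0012). MMP3, MMP10, MMP12 and MMP13, matrix metalloproteinase genes, did not pass the filter on low counts. MMP9, another of them, averaged 1.27 ± 0.238 CPM in knockdown, 0.313 ± 0.0563 CPM in PRGL493 and 1.29 ± 0.0788 CPM in control cells, and knockdown was 2.00 above PRGL493 on the log2 scale (SE 0.28, edgeR adjusted p = 1.6e-05). Of the 22, 9 were lower and 6 higher in knockdown than in PRGL493 cells.

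**Figure D4:**
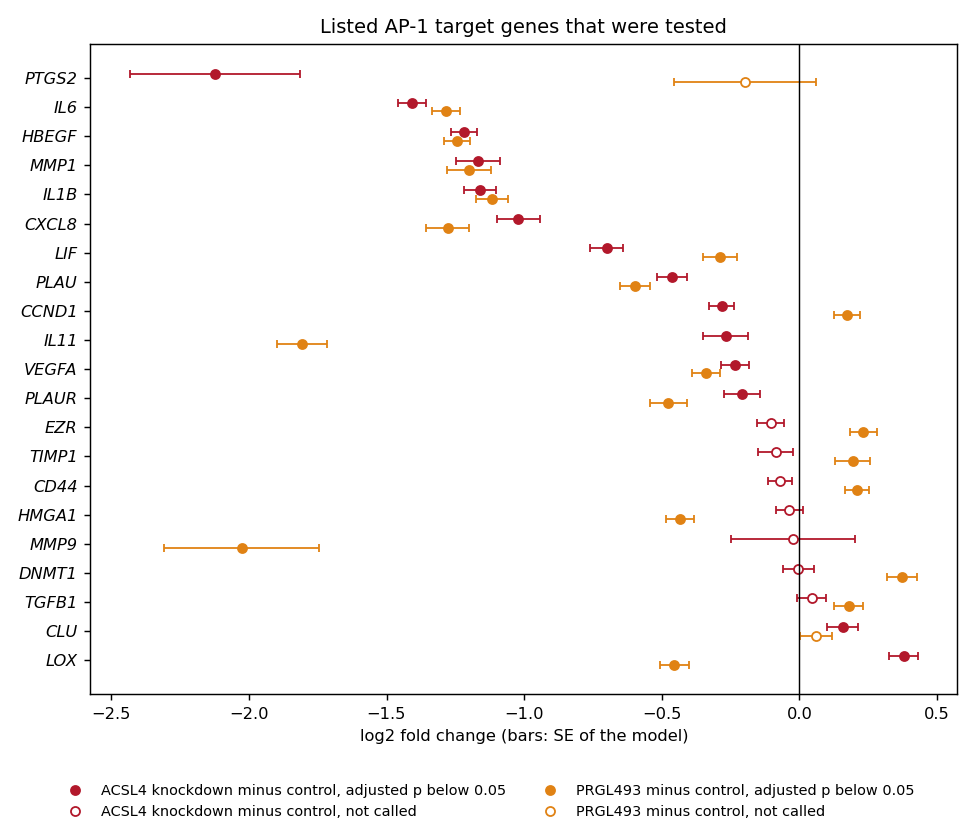
Log2 fold change against control (horizontal axis) of 21 tested AP-1 target genes in knockdown and PRGL493 cells; points are model estimates from 3 libraries a group, bars are SE, and open points missed an adjusted p of 0.05. IL6, HBEGF and IL1B lie below -1 in both treatments, and LOX lies at 0.38 in the knockdown and -0.45 in PRGL493 cells.

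The serum response factor group, which switches on FOS and other early genes at CArG boxes, had small differences. SRF itself averaged 105 ± 3.91, 116 ± 1.92 and 136 ± 3.83 CPM in knockdown, PRGL493 and control cells. It fell in the knockdown (log2 fold change -0.38, SE 0.05, edgeR adjusted p = 3.5e-05) and in PRGL493 cells (-0.23, SE 0.05, edgeR adjusted p = 0.0015). ELK3, a ternary complex factor, fell by 0.28 (edgeR adjusted p = 5.6e-04) in the knockdown and by 0.34 (edgeR adjusted p = 5.4e-05) in PRGL493 cells. MKL1, a coactivator of SRF, rose by 0.29 in PRGL493 cells (SE 0.07, edgeR adjusted p = 0.0039) and had a log2 fold change of -0.10 in the knockdown (SE 0.07, edgeR adjusted p = 0.34). ELK1, ELK4 and MKL2 passed in neither comparison with control, with log2 fold changes of 0.00, -0.10 and -0.17 in the knockdown and 0.10, -0.06 and 0.25 in PRGL493 cells. MKL2 passed without knockdown replicate 1, at -0.33 in the knockdown and 0.25 in PRGL493 cells, and in PRGL493 cells also without knockdown replicate 2 (0.25). Between knockdown and PRGL493, SRF (-0.15), MKL1 (-0.39) and MKL2 (-0.42) were lower. That was 3 of 6, or 50%, close to the 50.4% of all tested genes that were called. Without PRGL493 replicate 1 the count of 3 was 1, and the SRF call was also lost without knockdown replicate 1 or PRGL493 replicate 2.

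Kinases of the RAS and MAP kinase pathways upstream of AP-1 showed small RNA differences in both directions. In the knockdown 4 of 23 tested genes rose and 3 fell, with a median log2 fold change of 0.01. That count of 7 was 3 without control replicate 1 or control replicate 3, and 4 without control replicate 2 or knockdown replicate 3. EGFR, the EGF receptor and one of the line's markers above, fell to 200 ± 24.6 CPM in knockdown cells, against 274 ± 21.6 CPM in control cells (-0.45, SE 0.11, edgeR adjusted p = 0.0097). It kept its call in all 17 alternatives, and each of the other 6 lost it in at least 1. MAPK14, the p38 alpha kinase, rose by 0.17 (edgeR adjusted p = 0.010), a call lost without control replicate 1. In PRGL493 cells 8 of 23 rose and 4 fell, with a median of 0.11. MAPK7 (ERK5) rose to 23.9 ± 1.86 CPM, against 14.5 ± 0.747 CPM in control cells (0.73, SE 0.08, edgeR adjusted p = 1.6e-06). ARAF rose by 0.42 (edgeR adjusted p = 1.5e-05). MAPK8, the kinase JNK1 that phosphorylates JUN, fell by 0.27 (edgeR adjusted p = 0.0034), RPS6KA2 by 0.42 (edgeR adjusted p = 5.3e-05) and MAP2K3 by 0.34 (edgeR adjusted p = 1.3e-04). Knockdown cells were lower than PRGL493 cells in 8 of the 23 and higher in 4. Calls made up 30.4% of the list in the knockdown, 52.2% in PRGL493 cells and 52.2% between the treatments. The shares over all tested genes were 30.1%, 41.8% and 50.4%, so the list's share in the knockdown was close to that of all genes. RNA levels say nothing of the activity of these kinases, which was not measured.

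Among 15 genes for proteins that degrade, modify or control the RNA of AP-1 subunits, ZFP36 had the largest log2 fold change in each comparison with control. ZFP36 (tristetraprolin), which binds AU-rich elements and speeds the decay of short-lived RNAs, averaged 28.5 ± 1.06 CPM in knockdown, 49.97 ± 3.68 CPM in PRGL493 and 121 ± 3.76 CPM in control cells. It fell in the knockdown (-2.09, SE 0.06, edgeR adjusted p = 1.1e-13) and in PRGL493 cells (-1.27, SE 0.06, edgeR adjusted p = 7.5e-11). ZFP36L1, its relative, fell by 0.82 (edgeR adjusted p = 5.5e-08) in the knockdown and by 0.32 (edgeR adjusted p = 6.8e-04) in PRGL493 cells. ZFP36L2 fell in the knockdown by 0.36 (edgeR adjusted p = 5.8e-04), and its log2 fold change in PRGL493 cells was -0.12 (edgeR adjusted p = 0.15). GSK3B, a kinase that marks JUN for degradation, averaged 31.9 ± 2.52, 49.1 ± 2.62 and 39.3 ± 2.18 CPM in knockdown, PRGL493 and control cells. It fell in the knockdown (-0.30, SE 0.07, edgeR adjusted p = 0.0041) and rose in PRGL493 cells (0.32, SE 0.07, edgeR adjusted p = 0.0015), a difference of -0.62 between the treatments (SE 0.07, edgeR adjusted p = 1.9e-06). CSNK2A1, a casein kinase subunit, fell in PRGL493 cells by 0.30 (edgeR adjusted p = 5.0e-05). The list's count was 1 higher and 4 lower in the knockdown, and 1 higher and 3 lower in PRGL493 cells. Medians were 0.03 and -0.02. Knockdown was lower than PRGL493 for 4 of the 15 and higher for 2. Calls made up 33.3%, 26.7% and 40% of the list in the 3 comparisons, where 30.1%, 41.8% and 50.4% of all tested genes were called.

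Of 15 further tested relatives and partners of AP-1, 1 rose and 4 fell in the knockdown (median -0.13), and 1 rose and 5 fell in PRGL493 cells (median -0.17). BACH1, a repressor that pairs with small MAF proteins, averaged 155 ± 14.1, 145 ± 4.81 and 201 ± 9.21 CPM in knockdown, PRGL493 and control cells. It fell by 0.38 in the knockdown (edgeR adjusted p = 2.7e-04) and by 0.47 in PRGL493 cells (edgeR adjusted p = 1.6e-05). MAFK, a small MAF protein like MAFF, fell by 0.34 (edgeR adjusted p = 3.8e-04) and by 0.29 (edgeR adjusted p = 0.0010) in the same comparisons. NFE2L2 (NRF2), the factor of the antioxidant response, fell in the knockdown by 0.19 (edgeR adjusted p = 0.0064) and was lower there than in PRGL493 cells by -0.31 (edgeR adjusted p = 5.0e-05). NFE2L1 fell in PRGL493 cells by 0.34 (edgeR adjusted p = 3.0e-05), and ATF7 rose there by 0.35 (edgeR adjusted p = 0.0023). The knockdown count of 5 was 3 when knockdown replicate 2, PRGL493 replicate 2 or any 1 control library was left out. NFE2 and MAFA, both near or below 1 CPM, were among the calls lost. MAF was among the listed genes that did not pass the filter. Knockdown was higher than PRGL493 for 4 of the 15 and lower for 3. Calls made up 33.3% of the list in the knockdown, 40% in PRGL493 cells and 46.7% between the treatments. These were close to the 30.1%, 41.8% and 50.4% of all tested genes.

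Of 20 bZIP genes of the CREB, ATF and C/EBP kinds, 1 rose and 2 fell in the knockdown (median -0.10), a count of 3 that was 5 without knockdown replicate 1. In PRGL493 cells 2 rose and 7 fell (median -0.14). DDIT3 (CHOP), a stress-induced C/EBP relative, averaged 24.1 ± 1.01 CPM in knockdown, 15.1 ± 0.705 CPM in PRGL493 and 31.1 ± 0.146 CPM in control cells. It fell in the knockdown (-0.37, SE 0.06, edgeR adjusted p = 4.1e-04) and in PRGL493 cells (-1.04, SE 0.07, edgeR adjusted p = 3.3e-09). CEBPG, a partner of ATF4, fell in PRGL493 cells by 0.65 (edgeR adjusted p = 2.6e-07), and ATF5 rose by 0.69 (edgeR adjusted p = 2.4e-06). ATF4, the main factor of the integrated stress response, rose in the knockdown by 0.23 (edgeR adjusted p = 0.0085). Knockdown was higher than PRGL493 for 7 of the 20 and lower for 2. Calls made up 15%, 45% and 45% of the list in the 3 comparisons, where 30.1%, 41.8% and 50.4% of all tested genes were called.

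The integrated stress response, in which ATF4 switches on ATF3, DDIT3 and amino acid synthesis genes, differed between the treatments for most of its listed genes, while some moved the same way against control in both. Of its 12 listed genes other than ATF3, with DDIT3 and ATF4 shared with the list above, 7 rose and 4 fell in the knockdown (median 0.24). In PRGL493 cells 1 rose and 8 fell (median -0.67). ASNS, asparagine synthetase, averaged 407 ± 29.2 CPM in knockdown, 127 ± 2.44 CPM in PRGL493 and 333 ± 6.16 CPM in control cells. It fell in PRGL493 cells (-1.39, SE 0.05, edgeR adjusted p = 5.2e-12) and was higher in the knockdown than in PRGL493 cells (1.68, SE 0.05, edgeR adjusted p = 5.3e-13). PHGDH and PSAT1, enzymes of serine synthesis, rose in the knockdown by 0.71 (edgeR adjusted p = 4.5e-06) and 0.34 (edgeR adjusted p = 5.7e-05). PSAT1 fell in PRGL493 cells by 1.03 (edgeR adjusted p = 6.8e-11). Knockdown was above PRGL493 by 1.72 for PHGDH (edgeR adjusted p = 8.7e-11) and by 1.37 for PSAT1 (edgeR adjusted p = 1.8e-12). DDIT4, which restrains mTORC1, rose in both, by 1.21 (edgeR adjusted p = 1.5e-10) in the knockdown and 0.98 (edgeR adjusted p = 1.6e-09) in PRGL493 cells. SESN2 fell in both, by 0.98 in the knockdown (edgeR adjusted p = 4.8e-09) and 0.71 in PRGL493 cells (edgeR adjusted p = 1.8e-07). PPP1R15A fell in both, by 0.68 (edgeR adjusted p = 4.9e-08) and 0.64 (edgeR adjusted p = 8.2e-08), as did SLC7A11, by 0.57 (edgeR adjusted p = 0.0059) and 0.51 (edgeR adjusted p = 0.0073). ATF3, at 29.9 ± 2.56 CPM in knockdown, 51.3 ± 2.45 CPM in PRGL493 and 207 ± 2.98 CPM in control cells, was below control in both treatments. Knockdown was higher than PRGL493 for 9 of the 12 and lower for 1.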

How the data were processed

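RNA-seq of 9 MDA-MB-231 libraries was read from the authors' table of expected counts (estimated counts per gene symbol, unscaled), deposited with 10.5% of values not whole. The build was GRCh38, per the submitters' processing notes. The sources used here do not give the aligner, counter, annotation or use of strand. The counts were rounded and tested with edgeR 4.0.16 in R 4.3.3 (filterByExpr with a minimum of 10 counts, TMM, robust glmQLFit, group as the single term, 6 residual degrees of freedom, all 9 libraries). The design had assumed whole counts, and the test was kept. Each p was Benjamini-Hochberg adjusted over 14135 genes, with calls below 0.05. It reflects how far batches of one engineered population differ, not independent transductions. In 28 rows a date stood in place of the symbol; they were kept in totals and not named.

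Members, lists and rules were chosen with earlier results of these data known. Named genes are the members, ACSL4, up to 4 called genes per list, comparison and direction with the smallest adjusted p, the serum response factor list, and the 5 genes nearest to FOS, JUN and ATF3. Alternatives were 3 other scalings, 2 other filters, DESeq2 1.42.0, fits of the 2 groups compared, a replicate block and leaving out each library. The fit was tested on simulated data. Coordinates and lengths came from GENCODE 29. Some genes that the rule names are not reported here.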

Additional observations from a re-analysis of the deposited data

How the results depend on the processing

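Over 17 alternatives no AP-1 gene changed the direction of a log2 fold change that had been called. FOSL2 between knockdown and PRGL493, not called, ran from -0.05 to 0.05. FOSB ran from -6.64 to -6.22 in the knockdown and from -3.42 to -3.11 in PRGL493 cells. FOS ran from -2.86 to -2.76 and from -0.50 to -0.46, and JUN from -0.66 to -0.60 and from 0.47 to 0.52. Genes called in knockdown against control numbered 4250 and ran from 3074 to 4770 when single libraries were left out; PRGL493 against control had 5909 (4769 to 7132) and knockdown against PRGL493 had 7130 (5941 to 7303). Of the calls in knockdown against control 49.0% were higher, against 59.8% with library totals and 58.7% with upper-quartile factors; between knockdown and PRGL493 it was 48.4%, against 58.4% with upper-quartile factors. No scaling moved the median of all genes by over 0.055. The further AP-1 relatives called in the knockdown, 5, were 3 with no filter and 3 with DESeq2, and 3 to 5 with single libraries left out. That range was 3 to 5 for the CREB, ATF and C/EBP genes in the knockdown, 3 to 7 for the RAS and MAP kinase genes in the knockdown, and 1 to 3 for the serum response factor group in knockdown against PRGL493. The causes were not tested. Whether libraries with the same replicate number share a batch was not tested. Their deviations from the group mean correlated by 0.11, 0.15 and 0.06 between control and knockdown. Pairs of these groups with different numbers ran from -0.14 to 0.02. Same-number pairs with PRGL493 libraries went the other way, from -0.08 to -0.02, against -0.01 to 0.08 for different numbers. With a replicate block 3879, 5635 and 6857 genes were called in the 3 comparisons, where the fit without it called 4250, 5909 and 7130. Calls of NFE2, MAFA, MAPK3 and CLU in the knockdown were each lost in 9 or more alternatives. Estimates for FOSB in knockdown cells rest on 69 to 138 reads a library.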
